A study of Mus musculus with 4 samples.

Results

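The mitochondrial ribosome (mitoribosome) proteins encoded in the nucleus were followed in splenic T cells of mice with interleukin-27 delivered from muscle. The genes were taken by name, as every row of the deposited expression table whose symbol starts with Mrpl (large subunit) or Mrps (small subunit) and a digit. This gave 78 of the 17039 genes in the table, 49 Mrpl and 29 Mrps. All 78 had enough counts to be tested, among 12887 genes tested in all.

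RNA was sequenced from T cells of C57BL/6 mice in 2 groups. The AAV-IL-27 group had received a recombinant adeno-associated virus that expresses the cytokine interleukin-27 (IL-27), and the AAV-ctrl group a control recombinant adeno-associated virus. Both viruses were injected into muscle about a month before the spleens were taken, so all 4 mice carried a virus, and the T cells were separated by magnetic sorting. Each group has 2 libraries, named replicates 1 and 3, and the design text speaks of 4 mice, so each library is 1 mouse. The series title speaks of CD8+ T cells and the cell type label of splenic T cells. The mice's age and sex, the promoter of the virus and the content of the control virus are not given in the sources used here. The comparison asks how the levels of these transcripts differ in the T cells of mice exposed to IL-27.

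Mitoribosomes translate the few messenger RNAs of mitochondrial DNA, all of which encode core subunits of the respiratory chain and ATP synthase. Their ribosomal RNAs come from mitochondrial DNA, while every protein is made in the cytosol from a nuclear gene and imported. Part of the proteins descend from bacterial ribosomal proteins and part are particular to mitochondria. Activated T cells are known to build up mitochondria and to depend on mitochondrial translation when they divide and carry out effector functions.

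Total counts lay between 15742476 and 16182426 per library. The T cell genes were abundant in both groups, with Cd3e at 201 ± 11.2 FPKM in AAV-IL-27 and 174 ± 2.52 FPKM in AAV-ctrl, and Cd8b1 at 586 ± 56.1 FPKM in AAV-IL-27 and 611 ± 7.81 FPKM in AAV-ctrl (SD, n = 2 each; FPKM are fragments scaled by gene length and by library depth). Cd4 was at 9.16 ± 1.34 FPKM in AAV-IL-27 and 9.78 ± 0.0495 FPKM in AAV-ctrl. Of the 14 T cell markers tested, 8 were higher and 1 lower by edgeR (57.1% and 7.14%, against 21.3% and 17.7% of all genes tested). Their median log2 fold change was 0.22, from -0.27 for Thy1 to 0.70 for Lat. Together they held 0.603% and 0.534% of the counts in AAV-IL-27 replicates 1 and 3, against 0.524% and 0.533% in AAV-ctrl. By this sum AAV-IL-27 replicate 1 was above the AAV-ctrl libraries and replicate 3 was close to them. Markers of other cells moved with the groups. The 16 neutrophil markers held 0.0882% and 0.144% of the counts in AAV-IL-27 replicates 1 and 3, against 0.00557% and 0.00451% in AAV-ctrl, where 1 of the 16 was at 0 in each library (Ly6g in replicate 1, Prtn3 in replicate 3). B cell markers held 0.226% and 0.312% in AAV-IL-27 and 0.458% and 0.41% in AAV-ctrl, none of the 10 at 0. The 10 macrophage markers, none at 0, held 0.0139% and 0.015% in AAV-IL-27 and 0.0379% and 0.0251% in AAV-ctrl. The 10 natural killer cell markers held 0.0343% and 0.0315% in AAV-IL-27 and 0.0342% and 0.0332% in AAV-ctrl. By the test 7 of them were lower and 2 higher (70% and 20%). The 7 lower were Klra4, Klra8, Klra9, Klrb1c, Klre1, Klri2 and Ncr1, from -3.59 for Klra8 to -1.90 for Klri2. The 2 higher were Gzma (0.86) and Prf1 (1.01). Gzma, Prf1 and Txk held most of the list's counts, with 1912, 1773 and 1515 of 5526 in AAV-IL-27 replicate 1. In AAV-ctrl replicate 1 they held 1034, 856 and 1549 of 5406. Genes of cell division, 26 of which were followed, held 0.29% and 0.297% in AAV-IL-27 and 0.119% and 0.116% in AAV-ctrl, and all 26 were higher.

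Mitoribosomal protein transcripts were slightly more abundant in T cells of AAV-IL-27 mice relative to all transcripts, but not relative to T cell marker transcripts, where their median log2 fold change was -0.05 and which themselves had a median of 0.22. Of the 78 genes, 24 rose, none fell and 54 did not pass, by edgeR's quasi-likelihood test with Benjamini-Hochberg adjustment over all 12887 genes and a threshold of 0.05. Over all genes tested, 39% were called, 21.3% higher and 17.7% lower, while 30.8% of the mitoribosomal genes were called higher and 0% lower. At an unadjusted p under 0.05 by edgeR, 32 were higher and 1 lower, against 3244 and 2929 of the 12887 genes tested. DESeq2 called 6 of the 78 higher and none lower, against 15.6% and 9.61% of all genes. The median log2 fold change (AAV-IL-27 over AAV-ctrl) was 0.17 for the 78 genes, a 1.12-fold difference, against -0.0053 for all genes tested. Single genes lay between -0.23 and 0.53, and 64 of 78 (82.1%) were above 0, against 49.2% of all genes tested.

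The levels in the libraries show the same small shift. Together the 78 genes took 0.22% and 0.221% of all counts in AAV-IL-27 replicates 1 and 3, against 0.21% and 0.206% in AAV-ctrl replicates 1 and 3. The groups did not overlap, and each AAV-IL-27 library was above each AAV-ctrl library. On the FPKM scale the shares were 0.438% in each AAV-IL-27 library, against 0.41% and 0.404% in AAV-ctrl. Gene by gene, on the scale of counts per library size after TMM, 47 members had both AAV-IL-27 libraries above both AAV-ctrl libraries, 8 had both below, and 23 overlapped. Among all genes tested the groups stood apart in 35.7% with AAV-IL-27 higher and in 35.8% with AAV-IL-27 lower, and among the 78 in 60.3% and 10.3%. Fewer cells of a type and less RNA per cell cannot be told apart in such bulk samples. In AAV-IL-27 replicates 1 and 3 the neutrophil marker shares were 0.0882% and 0.144%, and the B cell marker shares 0.226% and 0.312%. With 2 libraries, no relation between these shares and that of the members can be read. The part of the neutrophil, B cell, macrophage, natural killer cell and cell division transcripts in the rise was not tested.

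**Figure D1:**
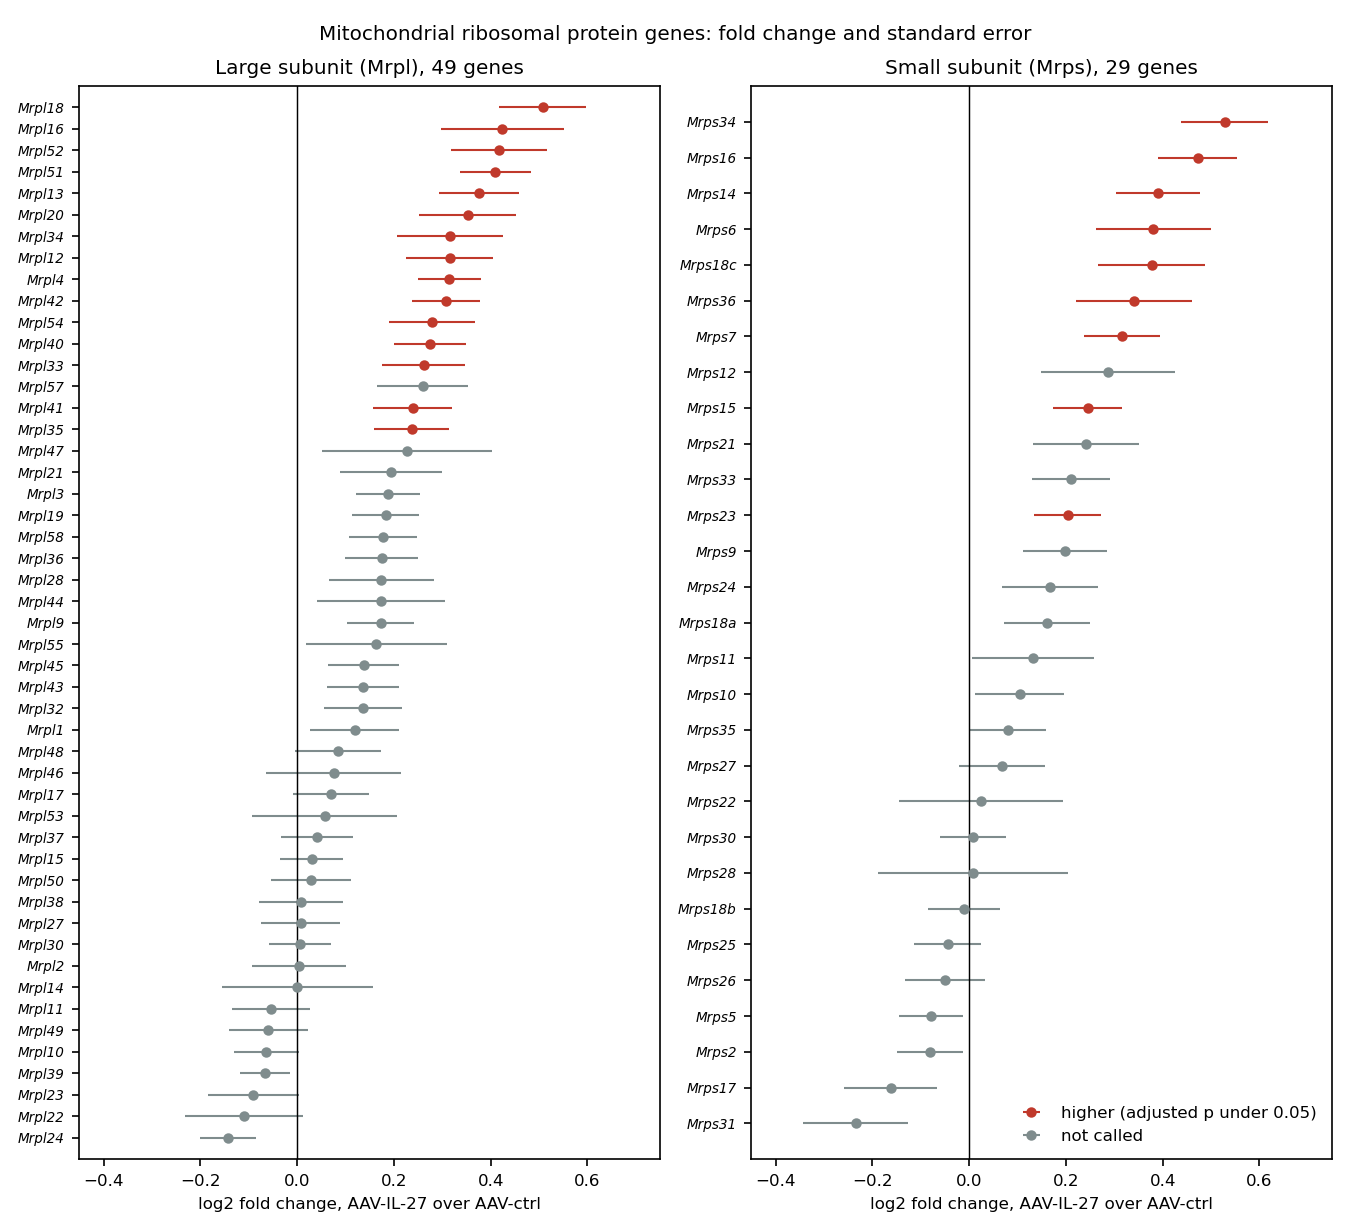
Log2 fold change of each of the 78 genes (x axis, AAV-IL-27 over AAV-ctrl, no unit) with its standard error, the large subunit on the left and the small subunit on the right, sorted from high to low. With the standard scaling, red points rose by edgeR's test (15 large and 9 small subunit genes), grey points did not pass, and the fold changes run from -0.23 to 0.53.

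How many genes passed depended on the tool, on the scaling and on the control libraries. DESeq2 called 6 of the 78 higher and 0 lower, where it called 15.6% of all genes higher and 9.61% lower. By DESeq2 the share of members called higher was thus below that of all genes. The members' median log2 fold change was 0.17 by DESeq2 as by edgeR. Without AAV-ctrl replicate 1 edgeR called 8, and without AAV-ctrl replicate 3 it called 6 (12.5% and 12.8% of all genes), and none was lower in either (7.5% and 7.97% of all genes). Without AAV-IL-27 replicate 1 the count was 18 higher and 0 lower (19.5% and 14.9% of all genes), and without AAV-IL-27 replicate 3 it was 17 higher and 2 lower (20% and 17.1%). With upper-quartile factors or library size alone, 15 were called higher and 1, Mrpl24, lower (18.3% and 23.1% of all genes). When libraries were scaled to the T cell markers, 2 were higher and 10 lower (10.8% and 38.3% of all genes), and the median of all genes moved to -0.22 and that of the members to -0.05. The 10 were Mrps31, Mrps17, Mrpl24, Mrpl23, Mrps2, Mrps5, Mrpl39, Mrpl10, Mrpl49 and Mrps25. Relative to the median of all genes the members' median was 0.17 higher both with this scaling and with the standard one. Scaling moves all genes by about the same amount, so it could hardly change this difference.

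Both subunits held genes that rose. Of the 49 large subunit genes 15 rose and 34 did not pass, with a median log2 fold change of 0.17, and of the 29 small subunit genes 9 rose and 20 did not pass, with a median of 0.16. Without AAV-ctrl replicate 3 the medians were 0.09 for the large and 0.18 for the small subunit. The summed FPKM of the large subunit genes was 1.97 times that of the small subunit genes in each AAV-IL-27 library, against 2.03 and 1.97 times in AAV-ctrl replicates 1 and 3. By descent, 15 of 47 members of bacterial protein families rose (median 0.17), as did 8 of 29 members particular to mitochondria (median 0.08). Mrpl55 and Mrps36 were put in neither class. No difference between subunits or classes was tested.

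**Figure D2:**
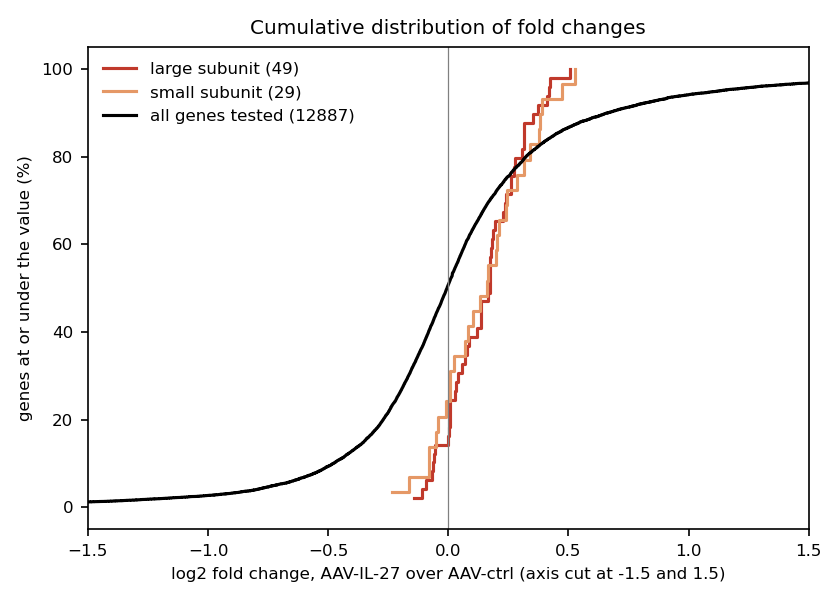
Cumulative share of genes (y axis, %) at or under a given log2 fold change (x axis, AAV-IL-27 over AAV-ctrl) for the 49 large subunit genes, the 29 small subunit genes and all 12887 genes tested. The mitoribosomal curves are steeper than that of all genes, with medians of 0.17 and 0.16 against -0.0053 under the standard scaling.

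In the small subunit, the largest rise was that of Mrps34, a protein of the small subunit that bacteria lack. Mrps34 (chromosome 17, 24895120 to 24896289, GRCm38.p6) had 28.0 and 27.0 FPKM in AAV-IL-27 replicates 1 and 3, against 20.7 and 18.8 FPKM in AAV-ctrl replicates 1 and 3. The AAV-IL-27 libraries were both above the AAV-ctrl ones, and the difference passed the test (log2 fold change 0.53 ± 0.09 (SE), edgeR adjusted p = 0.00165). Annotated exons of Nme3 and Mapk8ip3 cover 63.4% of the exon bases of Mrps34 on the opposite strand and 37% on the same strand. The strand setting of the counting was not given in the sources used here, so reads of these genes cannot be told apart with certainty. Neither neighbour was called higher: Nme3 had a log2 fold change of -0.03 ± 0.15 (edgeR adjusted p = 0.897) and Mapk8ip3 fell by 0.32 ± 0.048 on the log2 scale (edgeR adjusted p = 0.000809).

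Mrps16, the counterpart of bacterial S16, had 67.3 and 61.6 FPKM in AAV-IL-27 and 49.7 and 46.5 FPKM in AAV-ctrl. Both AAV-IL-27 libraries were higher (0.47 ± 0.082, edgeR adjusted p = 0.00176). Mrps14, the counterpart of bacterial S14, had 22.3 and 21.0 FPKM in AAV-IL-27 and 17.5 FPKM in each AAV-ctrl library (0.39 ± 0.087, edgeR adjusted p = 0.00646), and missed the threshold without AAV-ctrl replicate 1 (0.0564) or replicate 3 (0.0672). Mrps6, the counterpart of bacterial S6, had 16.6 and 17.1 FPKM in AAV-IL-27, against 13.5 and 13.3 FPKM in AAV-ctrl, with 158 to 209 expected counts per library. This rise of 0.38 ± 0.12 (edgeR adjusted p = 0.0311) was lost without AAV-IL-27 replicate 3 (adjusted p = 0.0675) and without AAV-ctrl replicate 1 (0.145) or replicate 3 (0.17). Mrps6 shares 19.9% of its exon bases with same-strand annotations, Slc5a3 among them. Slc5a3, which encodes an inositol transporter, had a log2 fold change of -0.13 ± 0.15 (edgeR adjusted p = 0.554).

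Of the 3 relatives of bacterial S18, Mrps18c alone passed the test. Mrps18c had 41.4 and 43.7 FPKM in AAV-IL-27, against 37.1 and 30.7 FPKM in AAV-ctrl. Its rise of 0.38 ± 0.11 (edgeR adjusted p = 0.0244) missed the threshold without AAV-IL-27 replicate 3 (an adjusted p of 0.0755) or AAV-ctrl replicate 3 (0.212). Mrps18a, whose protein sits in the large subunit in the structures of mammalian mitoribosomes, had 24.7 and 23.8 FPKM in AAV-IL-27 and 21.9 and 22.9 FPKM in AAV-ctrl (0.16 ± 0.088, edgeR adjusted p = 0.18). Mrps18b had 33.8 and 32.0 FPKM in AAV-IL-27 and 35.8 and 33.1 FPKM in AAV-ctrl, overlapping groups with a log2 fold change of -0.01 ± 0.075 (edgeR adjusted p = 0.929). Mrps18a had a negative sign when scaled to the T cell markers (-0.06). The sign of Mrps18b turned without AAV-IL-27 replicate 3 (0.03) and without AAV-ctrl replicate 1 (0.04). Same-strand exons of Gm43511 cover 23.2% of the exon bases of Mrps18c, and opposite-strand exons of Gm16279 cover 30.5% of those of Mrps18b. A test of the differences between the 3 genes was not run.

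Mrps30 and Mrps36 are named for the small subunit but are placed elsewhere. Mrps30, whose protein is also found in the large subunit of mammalian mitoribosomes, had 23.4 and 24.3 FPKM in AAV-IL-27 and 24.5 and 24.6 FPKM in AAV-ctrl (0.01 ± 0.068, edgeR adjusted p = 0.941), and its sign depended on the scaling. Mrps36, whose protein is now assigned to the 2-oxoglutarate dehydrogenase complex of the citric acid cycle, had 24.5 and 21.8 FPKM in AAV-IL-27, against 17.6 and 20.2 FPKM in AAV-ctrl. It passed narrowly (0.34 ± 0.12, edgeR adjusted p = 0.0493) and missed the threshold without AAV-IL-27 replicate 1 (an adjusted p of 0.176), AAV-ctrl replicate 1 (0.312) or AAV-ctrl replicate 3 (0.0933).

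In the large subunit, Mrpl18 (chromosome 17, 12911345 to 12917787) rose most. Its bacterial counterpart, L18, binds ribosomal 5S RNA. Mrpl18 had 54.1 and 54.6 FPKM in AAV-IL-27, against 43.2 and 35.9 FPKM in AAV-ctrl (0.51 ± 0.09, edgeR adjusted p = 0.00223). The AAV-ctrl libraries differed more than the AAV-IL-27 libraries, and both were lower. Exons of Tcp1, a cytosolic chaperonin gene on the opposite strand, cover 10.1% of the exon bases of Mrpl18, and Tcp1 rose too (0.29 ± 0.049, edgeR adjusted p = 0.00147).

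Mrpl51 (chromosome 6, 125192200 to 125194392), which bacteria lack, had 22.8 and 23.7 FPKM in AAV-IL-27, against 18.3 and 17.97 FPKM in AAV-ctrl (0.41 ± 0.073, edgeR adjusted p = 0.00213). Mrpl52, another protein particular to mitochondria and the second most abundant member, had 94.9 and 78.9 FPKM in AAV-IL-27 and 65.6 and 69.2 FPKM in AAV-ctrl. The AAV-IL-27 libraries differed from each other by more than the AAV-ctrl libraries did, and all stood apart by group (0.42 ± 0.099, edgeR adjusted p = 0.00942), though the call was lost without AAV-ctrl replicate 1 (an adjusted p of 0.0974) or replicate 3 (0.059). Mrpl16, the counterpart of bacterial L16, had 15.8 and 18.6 FPKM in AAV-IL-27, against 14.6 and 11.95 FPKM in AAV-ctrl. Its rise of 0.42 ± 0.13 (edgeR adjusted p = 0.0269) missed the threshold without AAV-IL-27 replicate 3 (an adjusted p of 0.121) or AAV-ctrl replicate 3 (0.22).

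Mrpl13 and Mrpl20, both counterparts of bacterial large subunit proteins, also rose. Mrpl13 had 35.2 and 37.8 FPKM in AAV-IL-27 and 28.5 and 29.8 FPKM in AAV-ctrl (0.38 ± 0.083, edgeR adjusted p = 0.0063), and was lost without AAV-ctrl replicate 1 (adjusted p = 0.073). Mrpl20 had 35.3 and 35.1 FPKM in AAV-IL-27 and 31.0 and 26.3 FPKM in AAV-ctrl (0.35 ± 0.1, edgeR adjusted p = 0.0204), and was lost without AAV-IL-27 replicate 1 (an adjusted p of 0.0542) or AAV-ctrl replicate 3 (0.189). Mrpl12, part of the stalk that recruits translation factors and a partner of the mitochondrial RNA polymerase, had 29.95 and 31.1 FPKM in AAV-IL-27, against 27.2 and 23.6 FPKM in AAV-ctrl. Its rise of 0.31 ± 0.09 (edgeR adjusted p = 0.0217) missed the threshold without AAV-IL-27 replicate 3 (an adjusted p of 0.0674) or AAV-ctrl replicate 3 (0.191). Mrpl10, which anchors that stalk, had 31.7 and 34.6 FPKM in AAV-IL-27 and 36.3 and 34.4 FPKM in AAV-ctrl, overlapping groups (-0.06 ± 0.067, edgeR adjusted p = 0.492). Opposite-strand exons cover 13.1% of the exon bases of Mrpl12 (Gm16755) and 14.1% of those of Mrpl10 (Gm11574).

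Few of these calls held under each change. Of the 24 genes that rose, 4 (Mrpl18, Mrps34, Mrpl51 and Mrps16) passed without each of the 4 libraries in turn. Their adjusted p values without AAV-ctrl replicate 3 were 0.0245, 0.0328, 0.0315 and 0.0325. DESeq2 called these 4 together with Mrpl4 and Mrpl52. Scaled to the T cell markers, Mrpl18 (0.29, edgeR adjusted p = 0.0225) and Mrps34 (0.31, edgeR adjusted p = 0.0357) still passed, while Mrps16 (adjusted p = 0.0618) and Mrpl51 (0.158) did not. Mrpl4, the counterpart of bacterial L4, was named after its values were seen. It rose by 0.31 ± 0.065 (edgeR adjusted p = 0.0047) and was lost without AAV-ctrl replicate 1 (adjusted p = 0.0685). The remaining 10 genes that rose were Mrps7, Mrpl34, Mrpl42, Mrpl54, Mrpl40, Mrpl33, Mrps15, Mrpl41, Mrpl35 and Mrps23, with log2 fold changes of 0.20 to 0.32, of which Mrps23 turned to -0.02 when scaled to the T cell markers. They were named because their number completes the 24. None of the 10 passed without AAV-ctrl replicate 1 (adjusted p from 0.0657 for Mrps7 to 0.197 for Mrpl33) or without AAV-ctrl replicate 3 (from 0.0526 for Mrpl42 to 0.268 for Mrpl34).

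**Figure D3:**
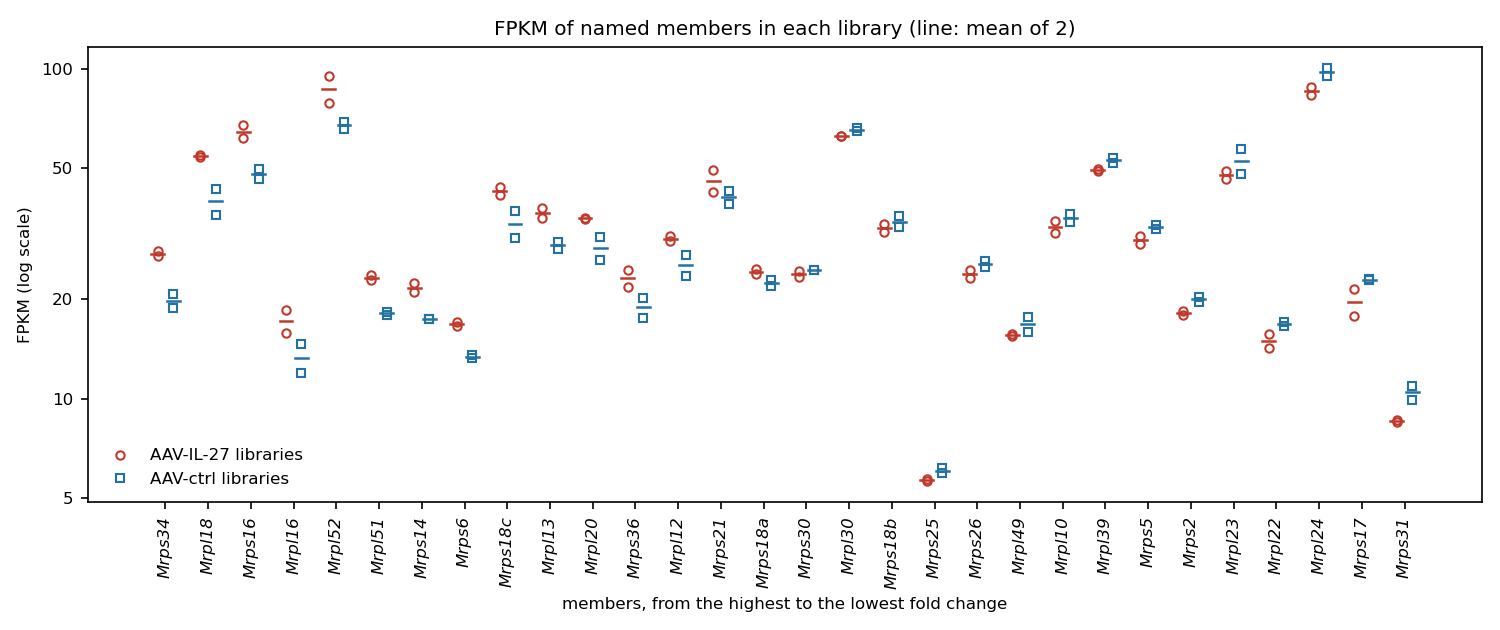
FPKM (y axis, log scale) of 30 mitoribosomal protein genes in each AAV-IL-27 library (red circles) and each AAV-ctrl library (blue squares), ordered along the x axis from the highest to the lowest fold change, with lines at the mean of 2 libraries. Mrps34 on the left had 28.0 and 27.0 FPKM in AAV-IL-27 against 20.7 and 18.8 FPKM in AAV-ctrl, and Mrps31 on the right had 8.58 and 8.50 FPKM in AAV-IL-27 against 9.91 and 10.95 FPKM in AAV-ctrl.

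The genes at the low end did not pass the test. Mrpl24, the most abundant member (chromosome 3, 87918131 to 87923450), had 83.1 and 87.8 FPKM in AAV-IL-27, against 95.1 and 101 FPKM in AAV-ctrl (-0.14 ± 0.058, edgeR adjusted p = 0.0794). Both AAV-IL-27 libraries were lower, and the gene was called lower with upper-quartile factors (adjusted p = 0.0242), with library size alone (0.0249), with the T cell marker scaling (0.00132) and without AAV-IL-27 replicate 3 (0.044). Opposite-strand exons of Rrnad1 cover 26.3% of its exon bases, and Rrnad1 fell by 0.31 ± 0.062 on the log2 scale (edgeR adjusted p = 0.00389). Mrps31 (chromosome 8, 22410449 to 22429669) had the lowest log2 fold change of all members, with 8.58 and 8.50 FPKM in AAV-IL-27 and 9.91 and 10.95 FPKM in AAV-ctrl (-0.23 ± 0.11, edgeR adjusted p = 0.117), and was called lower with the T cell marker scaling (-0.45, adjusted p = 0.00753). Mrps17, the counterpart of bacterial S17, had 17.8 and 21.4 FPKM in AAV-IL-27 and 23.1 and 22.8 FPKM in AAV-ctrl (-0.16 ± 0.097, edgeR adjusted p = 0.216), and was called lower with the T cell marker scaling (adjusted p = 0.00509) and without AAV-IL-27 replicate 3 (0.0291).

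Mrpl22, Mrpl23 and Mrpl24, relatives of some of the bacterial proteins that surround the exit of the growing protein chain, were the 3 lowest of the large subunit. Mrpl22 had 15.69 and 14.2 FPKM in AAV-IL-27 and 17.1 and 16.6 FPKM in AAV-ctrl (-0.11 ± 0.12, edgeR adjusted p = 0.516). Mrpl23 had 49.1 and 46.2 FPKM in AAV-IL-27 and 57.0 and 48.1 FPKM in AAV-ctrl (-0.09 ± 0.094, edgeR adjusted p = 0.481), and its sign turned without AAV-ctrl replicate 1 (0.02). Their neighbour at that exit, Mrpl47, was at 0.23 ± 0.18 (edgeR adjusted p = 0.344), with 0.44 without AAV-IL-27 replicate 1 and -0.02 without AAV-IL-27 replicate 3. This grouping was noticed in the values, does not take in every protein at that exit and was not tested.

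Other named members did not pass under the standard scaling. Mrpl30, the counterpart of bacterial L30 and next in abundance after Mrpl24 and Mrpl52, had 62.5 FPKM in each AAV-IL-27 library, against 64.6 and 66.2 FPKM in AAV-ctrl (0.01 ± 0.064, edgeR adjusted p = 0.951), and its sign depended on the scaling. Mrpl39, which bacteria lack, had 49.6 and 49.0 FPKM in AAV-IL-27 and 51.9 and 53.7 FPKM in AAV-ctrl (-0.07 ± 0.052, edgeR adjusted p = 0.341). Mrps5, Mrps2, Mrps25, Mrps26 and Mrpl49 had log2 fold changes of -0.08, -0.08, -0.04, -0.05 and -0.06. Opposite-strand exons of Nr2c2 cover 69.8% of the exon bases of Mrps25. Mrps21, the most abundant small subunit gene after Mrps16, had 42.2 and 49.2 FPKM in AAV-IL-27 and 38.8 and 42.6 FPKM in AAV-ctrl (0.24 ± 0.11, edgeR adjusted p = 0.109). On the FPKM scale AAV-IL-27 replicate 1 lay just under AAV-ctrl replicate 3, on the scale of scaled counts the groups stood apart, and the gene was called higher without AAV-IL-27 replicate 1 (0.36, adjusted p = 0.0285).

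Levels of the members differed far more among themselves than between groups. The lowest member had 3.71 and 3.64 FPKM in AAV-IL-27 and 3.69 and 3.56 FPKM in AAV-ctrl (Mrpl17), and Mrpl24, the highest on average, had 83.1 and 87.8 FPKM in AAV-IL-27 and 95.1 and 101 FPKM in AAV-ctrl. The SD of log2 FPKM over the 78 genes was 0.958 and 0.94 in AAV-IL-27 and 0.909 and 0.923 in AAV-ctrl. Medians over the members were 23.9 and 23.8 FPKM in AAV-IL-27 and 22.1 and 21.7 FPKM in AAV-ctrl, above the median of all genes tested, which was 10.6 and 10.7 FPKM in AAV-IL-27 and 10.9 FPKM in each AAV-ctrl library.

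Shorter transcripts tended to have the larger fold changes. Across the 78 genes the log2 fold change ran against the length that count and FPKM imply (Spearman rho -0.34, Pearson r -0.32 with log2 length), and across all 12887 genes tested rho was -0.14. Genes are not independent replicates and share the 4 libraries, so this is a description. Of the 39 shorter members, with lengths of 382 to 1016 bases, 15 rose, with a median of 0.18. Among the 39 longer members, of 1031 to 6793 bases, 9 rose, with a median of 0.12.

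**Figure D4:**
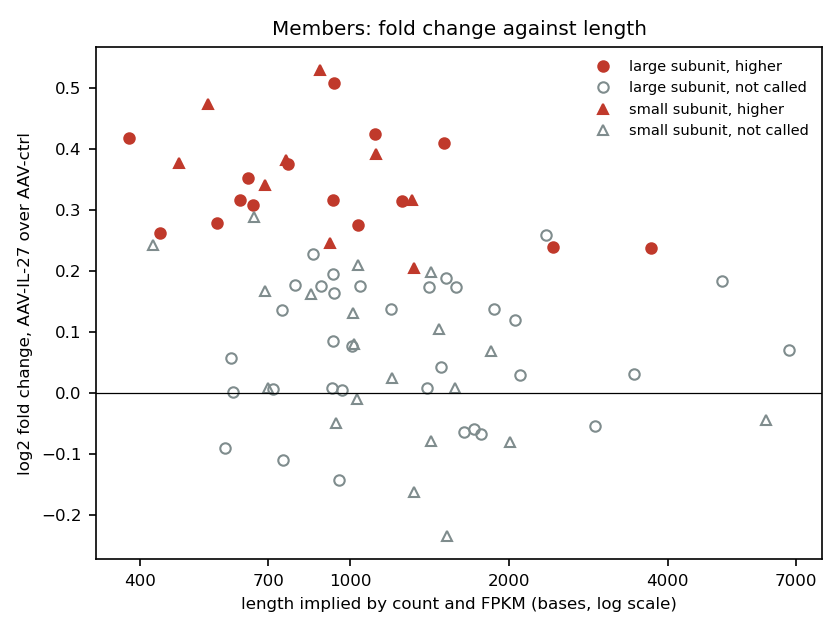
Log2 fold change (y axis, AAV-IL-27 over AAV-ctrl) against the gene length implied by count and FPKM (x axis, bases, log scale) for the 78 genes, circles for the large and triangles for the small subunit, filled where the gene rose. The 15 filled symbols among the 39 shorter genes stand against 9 among the 39 longer ones.

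The genes lie apart in the genome, on 17 chromosomes, with 11 on chromosome 11 and 8 on chromosome 17. Promoter windows of RefSeq (GRCm38.p6, 250 bases before to 50 after a gene's start) were found for 69 of the 78. The exceptions were Mrpl4, Mrpl13, Mrpl15, Mrpl19, Mrpl38, Mrpl54, Mrps28, Mrps34 and Mrps35. There were 75 windows, as a gene can have more than 1. The start that a window is built on can lie inside the annotated gene, as for Mrpl18 and Mrpl27. Distances below are counted from that start, so they are not strictly comparable between genes. Each window was searched on both strands for 4 motifs of regulators known to act on nuclear genes for mitochondrial proteins or on growth genes, and no motif contains another. The letters CCGGAAGT, bound by ETS family factors such as GABPA, were in windows of 12 of the 69 genes (17.4%), against 4.31% of all genes with a window and 7.27% of those in the expression table. AAGATGGC, bound by YY1, was also found for 12 genes (17.4%), against 3.19% of all genes with a window and 4.35% of those in the table. The palindrome bound by NRF1 was found for 3 genes (4.35%), against 1.07% and 1.87%. The E-box CACGTG, bound by MYC among others, was found for 5 genes (7.25%), against 8.09% and 10.4%. A match is a description of the sequence and not evidence of binding.

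The ETS letters lay wholly within the 100 bases before the start in 8 genes. Of these, 6 are shown as examples, Mrpl51, which rose, and 5 that did not pass. In the other genes with ETS letters that rose, the motif does not lie wholly within these 100 bases. The 6 shown therefore cannot tell whether its place differs between genes that rose and genes that did not pass. Each line gives the 100 bases before the start of the window used, 5′ to 3′ on the strand of the gene, with the motif or its reverse complement in capitals. For Mrpl27 the annotated gene begins at 94653770, within the stretch shown.

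Mrpl51, chr6:125192100-125192199, plus strand: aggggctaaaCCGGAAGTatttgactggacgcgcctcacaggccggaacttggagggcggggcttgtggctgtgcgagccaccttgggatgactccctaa
Mrpl3, chr9:105053168-105053267, plus strand: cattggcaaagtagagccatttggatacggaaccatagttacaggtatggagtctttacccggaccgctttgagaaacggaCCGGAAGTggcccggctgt
Mrpl43, chr19:45006443-45006542, minus strand: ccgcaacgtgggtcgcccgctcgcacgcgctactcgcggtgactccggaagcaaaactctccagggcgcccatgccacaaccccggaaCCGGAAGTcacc
Mrps22, chr9:98601680-98601779, minus strand: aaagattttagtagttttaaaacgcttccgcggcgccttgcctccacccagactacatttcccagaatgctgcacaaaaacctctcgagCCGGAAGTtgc
Mrps26, chr2:130563657-130563756, plus strand: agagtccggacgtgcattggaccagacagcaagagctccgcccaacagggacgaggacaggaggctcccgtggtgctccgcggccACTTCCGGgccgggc
Mrpl27, chr11:94653691-94653790, plus strand: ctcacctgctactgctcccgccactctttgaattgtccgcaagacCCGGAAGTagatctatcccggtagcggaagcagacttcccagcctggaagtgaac

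The motif begins 90 bases before the start in Mrpl51, 55 in Mrpl27, 19 in Mrpl3, 15 in Mrps26, 12 in Mrpl43 and 11 in Mrps22. Among the genes not shown, it begins 240 bases before the start in Mrpl18, 157 in Mrps18c and 3 in Mrpl33, all of which rose. In Mrpl52, which also rose, it begins 2 bases after the start. In Mrps27 and Mrpl48, which did not pass, it begins 49 and 35 bases before the start. The genes that rose thus had the motif both farther from and nearer to the start than the genes that did not pass. Of the 12 genes with ETS letters, 5 rose (Mrpl18, Mrpl33, Mrpl51, Mrpl52 and Mrps18c), with a median log2 fold change of 0.16 over the 12. Over the 69 genes with a window, 20 rose and the median was also 0.16.

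The YY1 letters lay after the start and on the strand of the gene in most of the genes that hold them, at varying distances. In 8 of the 12 they lay 12 to 37 bases after the start and on the strand of the gene in all 8. Letters on that strand anywhere in the 50 bases after the start were found for 11.6% of the members with a window. Of all genes with a window, 1.04% had them there. In 6 of the 8 the ATG inside the motif is annotated as a start codon in GENCODE vM21. The 30 bases around the motif are shown for 6 of the 8, with the motif in capitals.

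Mrps7, chr11:115604147-115604176, plus strand: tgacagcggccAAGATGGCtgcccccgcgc
Mrpl35, chr6:71823743-71823772, minus strand: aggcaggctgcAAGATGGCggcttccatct
Mrpl42, chr10:95501904-95501933, minus strand: cagattgaagcAAGATGGCgagcgcgcggt
Mrps18a, chr17:46111004-46111033, plus strand: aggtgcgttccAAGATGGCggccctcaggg
Mrpl49, chr19:6057721-6057750, minus strand: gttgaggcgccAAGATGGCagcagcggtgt
Mrps27, chr13:99344789-99344818, plus strand: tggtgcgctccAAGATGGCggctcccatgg

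Among the 8 genes, Mrps7, Mrpl35 and Mrpl42 rose and Mrps18a, Mrpl37, Mrpl49, Mrps24 and Mrps27 did not pass, and the median log2 fold change was 0.16. These counts were not tested. Transcripts of factors that bind such motifs were measured as well. Yy1 had 49.3 and 48.1 FPKM in AAV-IL-27, against 52.8 and 53.3 FPKM in AAV-ctrl, with both AAV-IL-27 libraries lower (-0.07 ± 0.049, edgeR adjusted p = 0.296). Gabpa had 22.02 and 22.3 FPKM in AAV-IL-27, against 22.2 and 23.2 FPKM in AAV-ctrl (0.02 ± 0.051, edgeR adjusted p = 0.74), with a sign that depended on the scaling. Nrf1 had 18.2 and 16.9 FPKM in AAV-IL-27, against 16.8 and 17.2 FPKM in AAV-ctrl (0.06 ± 0.064, edgeR adjusted p = 0.509), and was at -0.16 when scaled to the T cell markers. Myc, a driver of ribosome and mitochondrial gene expression in dividing T cells, had 107 and 128 FPKM in AAV-IL-27, against 91.2 and 106 FPKM in AAV-ctrl (0.30 ± 0.11, edgeR adjusted p = 0.0962). The call of Myc depended on the tool, with an adjusted p of 0.0112 by DESeq2 and 0.0422 by the non-robust edgeR fit, and it passed without AAV-IL-27 replicate 1 (0.005).

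Of 10 regulators of nuclear genes for mitochondrial proteins, 1 rose and 1 fell. These are 10% higher and 10% lower, against 21.3% and 17.7% of all genes tested. Ppargc1b, a coactivator of mitochondrial gene expression, had 4.72 and 4.90 FPKM in AAV-IL-27, against 3.28 and 3.73 FPKM in AAV-ctrl (0.51 ± 0.096, edgeR adjusted p = 0.00283), and passed without each library in turn. Pprc1, a coactivator of the same family, fell to 17.3 and 18.2 FPKM in AAV-IL-27, against 21.0 and 21.5 FPKM in AAV-ctrl (-0.21 ± 0.053, edgeR adjusted p = 0.0129), and missed the threshold without AAV-ctrl replicate 1 (an adjusted p of 0.0771) or replicate 3 (0.121). Ppargc1a was listed at 0.23 and 0.41 FPKM in AAV-IL-27 and 0.47 and 0.32 FPKM in AAV-ctrl (0.11 ± 0.31, edgeR adjusted p = 0.815), a level too low for the sign to hold between settings.

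Other parts of mitochondrial translation held genes that rose and genes that fell. Mitoribosomal proteins under other names (Dap3, Ptcd3, Aurkaip1, Chchd1 and Gadd45gip1) held no called gene among 5, with a median of 0.10. Gadd45gip1 and Aurkaip1 had log2 fold changes of 0.22 ± 0.09 (edgeR adjusted p = 0.078) and 0.18 ± 0.08 (adjusted p = 0.113), and Aurkaip1 was at -0.05 when scaled to the T cell markers. Gadd45gip1 passed without AAV-IL-27 replicate 1 (adjusted p = 0.0328), and Aurkaip1 passed without AAV-IL-27 replicate 3 (0.0338). Of 14 translation factors 3 rose, 1 fell and 10 did not pass (median -0.03), or 21.4% higher and 7.14% lower against 21.3% and 17.7% of all genes tested. The 3 that rose were Slirp (0.47 ± 0.15, edgeR adjusted p = 0.037), Tufm and Gfm1. The 1 that fell was Gfm2 (-0.20 ± 0.06, edgeR adjusted p = 0.0276). Tufm, the elongation factor that carries transfer RNAs to the mitoribosome, had 43.6 and 43.9 FPKM in AAV-IL-27, against 38.0 and 38.2 FPKM in AAV-ctrl (0.24 ± 0.055, edgeR adjusted p = 0.00712), and was lost without AAV-ctrl replicate 1 (an adjusted p of 0.0774) or replicate 3 (0.0634). Gfm1, the elongation factor for translocation, rose by 0.21 ± 0.064 (edgeR adjusted p = 0.0254) but missed the threshold in each of the 4 fits that left out a library (0.0518 to 0.165, the highest when AAV-ctrl replicate 1 was absent) and was near 0 when scaled to the T cell markers (-0.0031).

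Among the 26 assembly factors that could be tested were 5 that fell, 1 that rose and 20 that missed the threshold (median -0.05). These are 19.2% lower and 3.85% higher, against 17.7% and 21.3% of all genes tested, so the share that fell was near that of all genes. The 5 that fell were Mrm1, Mettl17, Eral1, Nsun4 and Dhx30, and the one that rose was C1qbp. Mrm1, which methylates the large mitochondrial ribosomal RNA, fell to 6.60 and 6.74 FPKM in AAV-IL-27, against 10.1 FPKM in each AAV-ctrl library (-0.55 ± 0.084, edgeR adjusted p = 0.000958). Mettl17, a factor of small subunit assembly, fell to 15.2 and 16.3 FPKM in AAV-IL-27, against 21.5 and 21.7 FPKM in AAV-ctrl (-0.41 ± 0.076, edgeR adjusted p = 0.00278). Both passed without each library in turn.

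Among 11 genes of mitochondrial DNA transcription and maintenance 2 fell, none rose and all 11 log2 fold changes were below 0 (median -0.14). The 18.2% that fell were near the 17.7% of all genes tested. At an unadjusted p under 0.05, 0 were higher and 3 lower by edgeR, against 3244 and 2929 of the 12887 genes tested. Of those 12887 genes, 6545 had log2 fold changes below 0. Polg2, the accessory subunit of the mitochondrial DNA polymerase, fell to 4.69 and 3.82 FPKM in AAV-IL-27, against 7.61 and 6.69 FPKM in AAV-ctrl (-0.68 ± 0.15, edgeR adjusted p = 0.00708), and was lost without AAV-ctrl replicate 1 (adjusted p = 0.0914). Polrmt, the mitochondrial RNA polymerase, had 6.73 and 6.91 FPKM in AAV-IL-27, against 8.40 and 8.49 FPKM in AAV-ctrl (-0.26 ± 0.074, edgeR adjusted p = 0.0219). Polrmt missed the threshold without AAV-IL-27 replicate 1 (an adjusted p of 0.0625), AAV-ctrl replicate 1 (0.105) or AAV-ctrl replicate 3 (0.127). Tfam, which packages and transcribes mitochondrial DNA, had 26.2 and 29.0 FPKM in AAV-IL-27, against 30.1 and 29.8 FPKM in AAV-ctrl (-0.06 ± 0.06, edgeR adjusted p = 0.477).

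**Figure D5:**
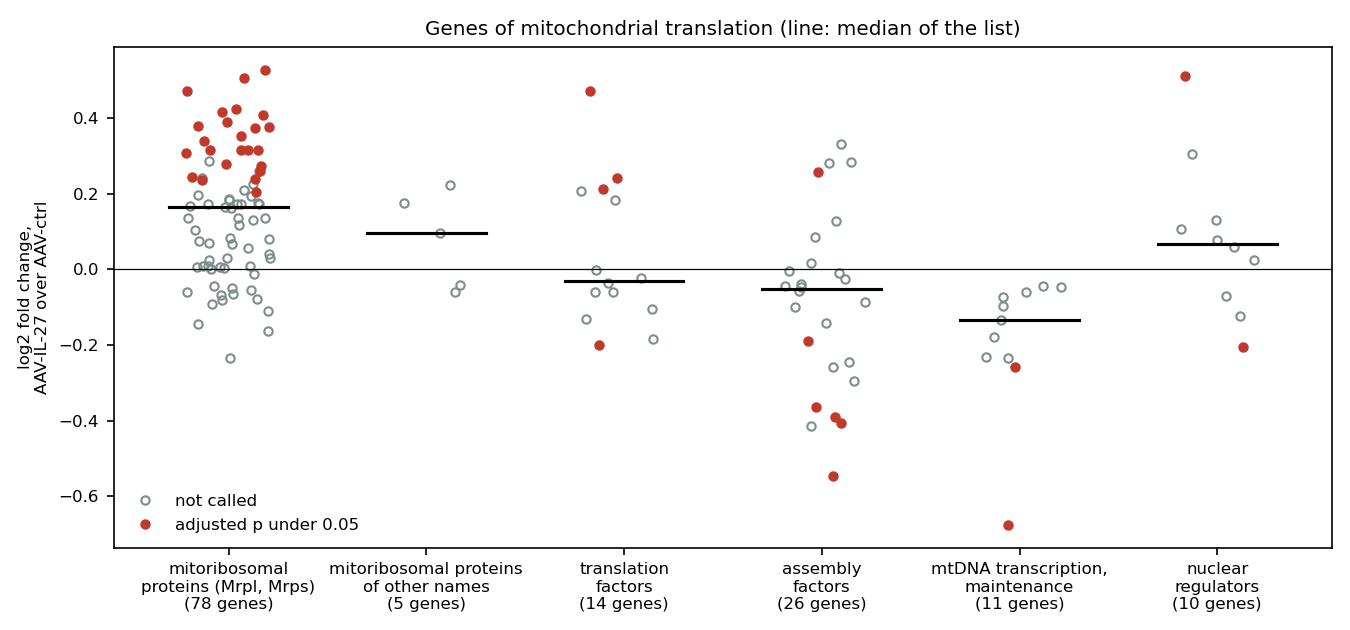
Log2 fold change (y axis, AAV-IL-27 over AAV-ctrl) of the 78 mitoribosomal protein genes and of 5 lists of other mitochondrial translation genes, 1 point per gene, filled where edgeR's adjusted p was under 0.05, with a line at each median. The mitoribosomal proteins have 24 filled points, all above 0 under the standard scaling, while the assembly factors have 5 filled points below 0 and 1 above.

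The proteins of the cytosolic ribosome, a separate set of nuclear genes, are given beside them. Among 81 such genes 3 rose, 31 fell and 47 missed the threshold, with a median log2 fold change of -0.09. These are 3.7% higher and 38.3% lower, against 30.8% and 0% of the mitoribosomal genes and 21.3% and 17.7% of all genes tested. The difference between these lists was not tested, and their names were matched after earlier results of these data were known.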

How the data were processed

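RNA of T cells from 4 mice was sequenced, 2 per group, and samples were grouped by their titles. The authors deposited expected counts per gene, of which 64.9% to 65.1% per library are whole numbers, and a second value per gene that was taken as FPKM from its relation to counts, since the file headers do not name it. The submitters' processing notes name GRCm38.p6, RSEM 1.2.12, Bowtie2 2.2.5, HISAT2 2.0.4 and DESeq2 1.4.5, without roles. The authors' group averages were not used.

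Expected counts were rounded, filtered with filterByExpr (12887 of 17039 genes kept), scaled by TMM and compared over all genes with edgeR 4.0.16 (robust quasi-likelihood fit, two-sided, no block) in R 4.3.3, with limma 3.58.1 and DESeq2 1.42.0 as alternatives. The fit was tested on simulated data. The standard error is the log2 fold change divided by the square root of F. FPKM describe levels only. Lengths are count divided by FPKM and library size. Positions and promoters come from RefSeq, matched for 78 and 69 of 78 genes by NCBI Gene number, and exon overlaps from GENCODE vM21 of the same build, over all isoforms, with 14 members overlapped on the opposite strand by at least 10% of their exon bases. Of the T cell list, 14 of 17 genes were tested. The same fit gave 26 of the 27 assembly factors and 5 of 6 mitoribosomal proteins of other names. The name not found, Ict1, is an older symbol of Mrpl58, which was tested among the 78.

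The genes named are, for each subunit, the 6 highest and 6 lowest fold changes and the 3 highest levels, with Mrps18a, Mrps18b, Mrps18c, Mrpl12, Mrps30 and Mrps36, the 2 smallest p of each related list and 8 regulators and factors. Others were named after their values were seen, among them the genes called in each related list. The called cytosolic ribosomal genes are counted but not named. Members and lists were chosen with earlier results of these data known. P-values rest on the spread between 2 mice per group, which the fit moderates for each gene with that of all genes tested.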

Additional observations from a re-analysis of the deposited data

How the results depend on the processing

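The members' median log2 fold change was 0.16 to 0.17 by DESeq2, limma-voom, the non-robust fit, no filter and the replicate block. It was 0.11 with upper-quartile factors, 0.12 with library size alone and -0.0497 with T cell marker factors, and 0.12 to 0.19 leaving out 1 library. Relative to the median of all genes it stayed between 0.12 and 0.19 in all 12 alternatives, with both ends from fits that left out 1 library. Other scaling factors could hardly move this difference, since they shift all genes about equally. The other tools used the same counts. The members' summed share in AAV-IL-27 was 1.06 times that in AAV-ctrl by counts and 1.08 times by FPKM.

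Counts of calls moved more. DESeq2 called 3243 genes (1239 lower) and 6 members higher (4 large and 2 small subunit). Of the 66 genes tested from the related lists it called 3 higher and 4 lower, against 15.6% and 9.61% of all genes. Upper-quartile factors and library size alone each called 15 members higher (5 small subunit) and 1 large subunit member lower, against 18.3% and 23.1% of all genes. T cell marker factors called 1398 genes higher and 4939 lower (10.8% and 38.3% of all genes). They called 2 members higher (1 per subunit) and 10 lower (5 per subunit). Of the 66 related genes 1 was higher and 29 were lower, to be read beside the same 10.8% and 38.3%. Other factors move every gene by about the same amount. Leaving out 1 library, all calls ranged from 2635 to 4886, those higher from 1646 to 2632 and those lower from 989 to 2254. Members called higher ranged from 6 to 18 and lower from 0 to 2 (Mrpl24 and Mrps17, both without AAV-IL-27 replicate 3), large subunit genes from 4 to 11 and 0 to 1, small subunit genes from 2 to 8 and 0 to 1, and related genes from 1 to 6 higher and 2 to 7 lower. With 1 library left in a group, its spread was assumed to be that of the other. The causes were not tested.

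Some single genes changed sign, among them Gfm1, which was called higher under the standard scaling. With upper-quartile factors, library size alone and T cell marker factors, Mrpl30 was at -0.044, -0.044 and -0.21, Mrps30 at -0.043, -0.042 and -0.21, and Gabpa at -0.026, -0.026 and -0.19. T cell marker factors also gave -0.057 for Mrps18a, -0.045 for Aurkaip1, -0.0031 for Gfm1, -0.11 for Ppargc1a and -0.16 for Nrf1. Leaving out 1 library, values ranged from -0.13 to 0.012 for Mrpl49, -0.20 to 0.023 for Mrpl23, -0.013 to 0.025 for Mrpl30, -0.061 to 0.040 for Mrps18b, -0.022 to 0.038 for Mrps30, -0.22 to 0.38 for Ppargc1a and -0.0081 to 0.055 for Gabpa. Over all alternatives the named genes kept direction and call in 429 cases, lost the call in 64, gained it in 23 and changed sign in 24.

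The replicate numbers 1 and 3 are shared by both groups, but deviations of same-numbered libraries did not go together (correlation -0.00071 over 12887 genes), so they were not taken as pairs. With the number as a replicate block, 22 members were called higher and 0 lower.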
